A study of Mus musculus with 12 samples.

Results

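The genes described here are 40 antiviral interferon-stimulated genes, measured by RNA-seq in isolated mouse islets. They were chosen by name, as genes that interferons of type I are known to induce, without the guanylate-binding, MHC and IRF families. That choice was made with earlier results of these data known. Each of the 40 listed symbols was found among the 14089 genes of the deposited count table. The study asked how ML351, an inhibitor of 12/15-lipoxygenase, changes islets exposed to inflammatory cytokines. Islets of C57BL/6J mice, the strain common to all groups, were cultured for 24 h in 4 ways, with 3 libraries each. One group received vehicle alone and another received ML351 at 10 µM. The cytokine group received IL-1β at 5 ng/ml, TNF-α at 10 ng/ml and IFN-γ at 100 ng/ml. In the combination group, islets received that cytokine mixture and ML351 at 10 µM together. The labels give neither the age nor the sex of the mice, and do not say whether islets of several mice were pooled. Nor is it stated that the 3 libraries of a treatment stem from different mice or cultures. A p-value here therefore reflects how much these libraries vary, and that variation may be technical. Values of single libraries are given in the order of the label numbers, which are 1, 2 and 4 for vehicle and the combination, 1, 2 and 3 for ML351, and 1, 3 and 4 for cytokines.

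Interferon-stimulated genes are the effector arm of the antiviral response. Interferons of type I and type III activate a complex that holds STAT2 and IRF9 and binds an interferon-stimulated response element in the promoters of its targets. IFN-γ, the type II interferon and the one supplied here, acts mainly through gamma-activated sites, and through the transcription factor IRF1. The proteins encoded by the 40 genes sense or cut viral RNA, block viral entry and release, deplete nucleotides, or attach the ubiquitin-like protein ISG15 and ADP-ribose to other proteins. In islets this programme has been studied because an interferon signature is seen in type 1 diabetes.

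One feature that can be read from sequence is the response element, so the promoters of 8 members that hold a match are shown before their values. Windows of 250 bases before to 50 bases after a start site were taken from RefSeq (GRCm38.p6), which held 35 windows of 29 members. The response element was searched as GAAANNGAAA and the gamma-activated site as TTCNNNGAA, each on both strands. A response element match was present in 12 of the 29 members (41.4%) and in 34.3% of their 35 windows, against 3.44% of all 32851 windows in the table. A gamma-activated site match was present in 9 members (31%) and in 25.7% of their windows, against 8.3% of all windows. Of the 21 response element matches, 17 lay before the start site, 2 shared bases with a gamma-activated site match, and their centres lay at a median of -67 bases from the start. Matches describe letters in these windows and do not show that a factor bound there. The 120-base stretches below are 5′ to 3′ on the strand of the gene, with response element matches in capitals, overlapping matches running together, and capitals beginning with TTTC where the match lies on the opposite strand. Isg15 (chr4:156200819-156200938, minus strand), Ifit1 (chr19:34640769-34640888, plus strand), Ifit3 (chr19:34583317-34583436, plus strand) and Rsad2 (chr12:26456453-26456572, minus strand) are shown because they hold a match and rose strongly with cytokines. Since each of the 8 stretches holds a match, they do not stand for the members without one, some of which rose more. Oas3 (chr5:120777660-120777779, minus strand), Oas1a (chr5:120907526-120907645, minus strand) and Oas1g (chr5:120887614-120887733, minus strand) show matches at unlike and at like positions within a gene family. Ifitm2 (chr7:140955962-140956081, minus strand) is shown because it holds a match and was not called with the cytokine mixture alone.
Isg15: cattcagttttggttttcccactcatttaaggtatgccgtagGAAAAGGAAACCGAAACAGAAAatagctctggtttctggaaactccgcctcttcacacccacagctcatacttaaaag
Ifit1: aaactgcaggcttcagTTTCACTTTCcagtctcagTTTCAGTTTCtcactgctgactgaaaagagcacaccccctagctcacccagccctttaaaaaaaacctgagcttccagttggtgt
Ifit3: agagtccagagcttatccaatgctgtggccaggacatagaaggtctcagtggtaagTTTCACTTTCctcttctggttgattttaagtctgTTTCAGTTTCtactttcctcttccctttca
Rsad2: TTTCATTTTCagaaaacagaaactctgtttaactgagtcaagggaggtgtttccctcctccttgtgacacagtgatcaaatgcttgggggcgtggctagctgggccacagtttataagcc
Oas3: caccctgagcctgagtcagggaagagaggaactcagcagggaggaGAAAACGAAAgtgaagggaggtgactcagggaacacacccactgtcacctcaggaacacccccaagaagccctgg
Oas1a: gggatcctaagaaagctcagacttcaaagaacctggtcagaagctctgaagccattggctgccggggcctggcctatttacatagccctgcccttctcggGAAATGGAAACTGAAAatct
Oas1g: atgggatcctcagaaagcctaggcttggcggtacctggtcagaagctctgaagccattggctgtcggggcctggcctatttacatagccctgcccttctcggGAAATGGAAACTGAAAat
Ifitm2: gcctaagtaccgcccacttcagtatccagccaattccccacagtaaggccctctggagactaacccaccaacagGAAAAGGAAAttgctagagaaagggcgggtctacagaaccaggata

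Isg15 held 3 overlapping matches, with centres at -73, -67 and -61 bases from its start. Ifit1 had 2 separate matches, at -99 and -80, and Ifit3 also had 2, at -151 and -117. Oas1a and Oas1g, neighbours on chromosome 5, carried the same pair of overlapping matches next to the start, at -15 and -9 in Oas1a and at -13 and -7 in Oas1g. Ifitm2 had 1 match, at -41. No response element match was present in the windows of 17 members, among them Ifit2, Ifi44, Xaf1 and Dtx3l, which rose with cytokines as described below. The windows of Oas1b, Oas2, Mx1, Mx2, Usp18, Parp9, Parp10, Parp14, Ifi204, Ifi27 and Rtp4 were not analysed here.

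**Figure D1:**
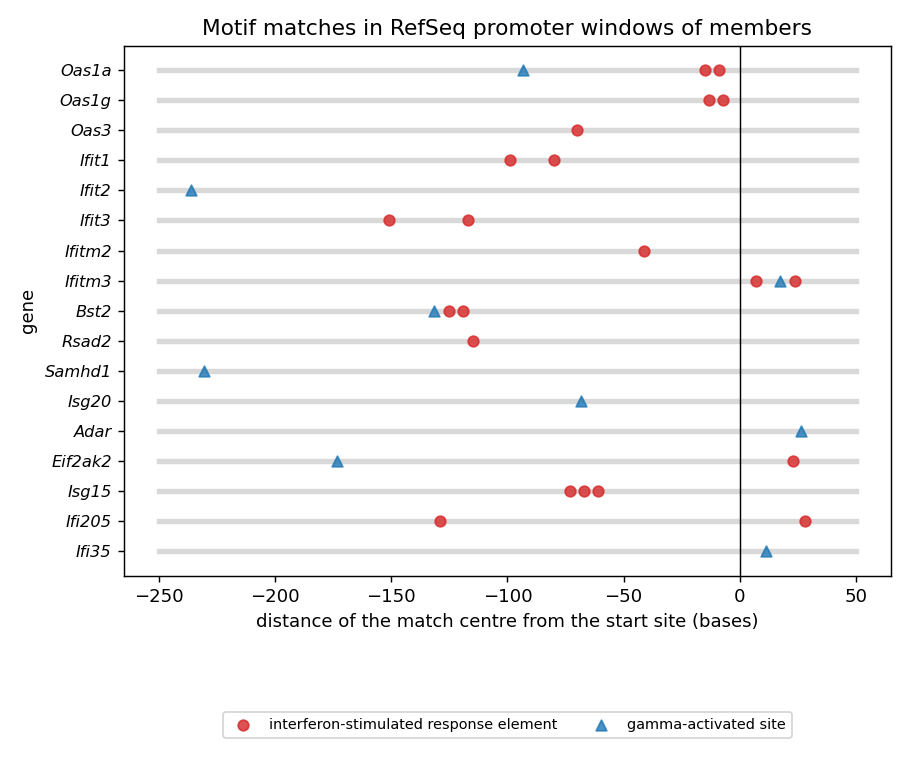
Positions of motif matches in the RefSeq promoter windows of the 17 members with at least 1 match. The x axis is the distance of the match centre from the start site in bases, each row is a gene, circles are response element matches and triangles are gamma-activated site matches, and grey bars span the window searched. Response element matches of Isg15, Ifit1, Oas1a, Oas1g and Oas3 lie within 100 bases before the start.

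Library totals ran from 20208286 to 27193026 counts. The 40 genes took 0.151% to 0.172% of all counts with vehicle, 0.163% to 0.182% with ML351, 0.612% to 0.669% with cytokines and 0.625% to 0.669% with the combination. Per kilobase of exons (GENCODE M21), their median level with vehicle was 1.2 CPM (counts scaled to the library total), below the median of 3.31 CPM per kilobase over the 13589 genes with a length. With cytokines the members' median was 36.5 CPM per kilobase, against 3.23 over those genes. The number of members above the median gene was 14 with vehicle, 13 with ML351, and 36 in each group that received cytokines. Lgals3bp, a secreted glycoprotein that binds galectin-3, was the member with the highest level per length in each group, at 397 ± 17 CPM per kilobase with vehicle and 594 ± 6.01 with cytokines (SD, n = 3). Isg20, an RNA exonuclease, followed at 50.8 ± 0.508 and 415 ± 17.2 CPM per kilobase. Ifitm2 had rank 3 with vehicle at 48.9 ± 4.93 CPM per kilobase, which its spread does not separate from Isg20, and rank 13 with cytokines at 49.8 ± 6.41.

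Islets hold several cell types, and in bulk RNA fewer cells of a type and less RNA per cell cannot be told apart. The beta cell markers summed to 286300 to 379000 CPM without cytokines and to 257200 to 342900 CPM with them, ranges that overlap. By edgeR 6 of the 8 beta cell markers were lower with cytokines against vehicle (median log2 fold change -3.36) and 6 were lower with the combination against ML351 (median -3.16). Alpha cell markers summed to 27410 to 40040 CPM without cytokines and to 667 to 1589 CPM with them. Delta cell markers summed to 1375 to 1513 CPM without cytokines and to 91.7 to 204 CPM with them, and those of PP cells to 4152 to 11790 CPM and to 300 to 1410 CPM. Endothelial markers summed to 69.5 to 85 CPM without cytokines, 14.2 to 19.5 CPM with cytokines and 8.52 to 12.1 CPM with the combination. The 12 macrophage markers summed to 220 to 225 CPM with vehicle, 164 to 184 with ML351, 326 to 349 with cytokines and 292 to 306 with the combination. Ductal markers summed to 771.5 to 993.2 CPM without cytokines and to 1689 to 2285 CPM with them. By edgeR 3 of the 5 measured ductal markers were higher with cytokines against vehicle, and none was lower. Stellate and fibroblast markers summed to 94.06 to 329.9 CPM without cytokines and to 28.34 to 140.1 CPM with them, ranges that overlap. By edgeR 4 of these 7 markers were lower and 1 higher with cytokines against vehicle. With the combination against ML351, 2 were lower and 1 higher. Acinar markers summed to 154 to 595 CPM with vehicle, 91.3 to 240 with ML351, 33.3 to 810 with cytokines and 971 to 1437 with the combination. By edgeR none of the 11 measured acinar markers was called with cytokines against vehicle. With the combination against ML351, 9 were higher (median log2 fold change 2.83) and none was lower. Of the dendritic cell and lymphocyte markers, 1 of 3 and 1 of 9 were among the measured genes. The part of these shifts in the results on the 40 genes was not tested.

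**Figure D2:**
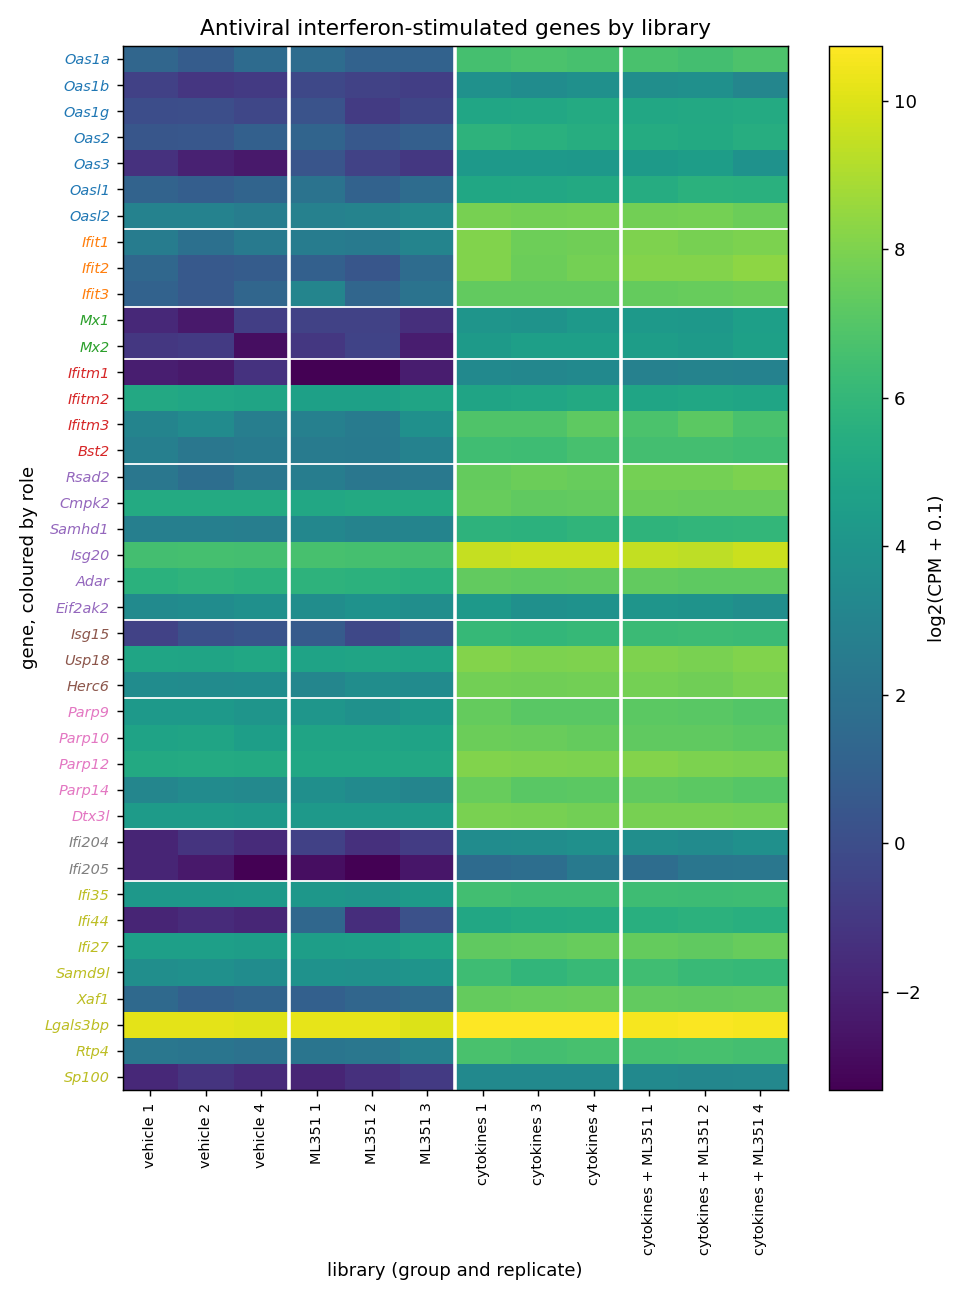
Level of each of the 40 genes (rows, coloured by role) in each of the 12 libraries (columns, by group and replicate) as log2(CPM + 0.1). The 6 libraries with cytokines are brighter than the 6 without in nearly every row, and Ifitm2 and Eif2ak2 change least.

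The first comparison set the cytokine mixture against vehicle. The antiviral programme rose almost as a whole. By edgeR's quasi-likelihood test, 39 of the 40 members were higher, none was lower, and Ifitm2 was not called. Over all genes, 35.3% were called higher and 37.2% lower, so a call alone is common in this comparison. The size of the change was less common, since 36 members rose more than 4-fold, as 6.19% of all genes did, and 22 rose more than 16-fold, as 1.99% did. Because the members were chosen with earlier results of these data known, these shares describe the list and test nothing. The median log2 fold change was 4.38 over the members (range 0.02 to 7.56) and -0.02 over all genes. In 39 members each cytokine library lay above each vehicle library, as in 37.2% of all genes.

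Active 2-5A synthetases make a short oligoadenylate when they bind double-stranded RNA, and this starts the decay of RNA in the infected cell. All 7 measured genes of this group, which takes in relatives such as Oasl1, rose, with log2 fold changes of 4.10 to 6.66. Oas3 read 0.297, 0.140 and 0.0921 CPM in the vehicle libraries and 19.1, 19.4 and 17.7 CPM in the cytokine libraries. The groups were far apart, and the vehicle values rest on 12 counts in all, so the ratio of counts was 104 with an exact 95% interval of 59.5 to 202 for counting error. The fitted log2 fold change was 6.66 with the 12 libraries and 7.27 without vehicle library 1. Oas1a read 2.38, 1.59 and 2.95 CPM with vehicle and 95.9, 107 and 101 CPM with cytokines, a log2 fold change of 5.45 (SE 0.16, edgeR adjusted p = 4.3e-13). Oas1a shares 57.6% of its 50-base stretches with Oas1g, so reads may be split between them, and both rose, Oas1g by a log2 fold change of 5.36. Oasl2 rose by 5.01, Oas2 by 5.02, Oas1b by 4.83 and Oasl1 by 4.10. Oas1b is annotated as a polymorphic pseudogene, being truncated in many laboratory strains, and its RNA still rose.

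The IFIT proteins bind viral RNA by its unusual 5′ ends and halt its translation. Ifit2 read 2.504, 1.40 and 1.61 CPM with vehicle and 271, 191 and 220 CPM with cytokines, a log2 fold change of 6.93 (SE 0.26, edgeR adjusted p = 3.5e-09). Ifit3 read 2.08, 1.45 and 2.39 CPM with vehicle and 163, 162 and 162 CPM with cytokines, a log2 fold change of 6.35. The cytokine libraries of Ifit3 lay close together and far above vehicle. Ifit3 shares 51.2% of its 50-base stretches with its neighbour Ifit3b, a non-member that rose by 4.74, so the share of each is uncertain. Ifit1 rose by 5.52. All 3 lie on chromosome 19.

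The Mx proteins are dynamin-like GTPases that trap viral nucleoproteins. Mx2 read 0.382, 0.420 and 0.0460 CPM with vehicle and 20.3, 24.2 and 24.1 CPM with cytokines, a log2 fold change of 6.30 (SE 0.36, edgeR adjusted p = 7e-09). Mx1 read 0.212, 0.0934 and 0.506 CPM with vehicle and 16.1, 14.6 and 19.6 CPM with cytokines, a log2 fold change of 5.93 (6.70 without vehicle library 4). Both genes were near the floor of detection without cytokines and clear of it with them. Mx2 is annotated as a polymorphic pseudogene.

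Membrane restriction factors stop virions from entering or leaving the cell, and their log2 fold changes ran from 0.02 to 5.73. Ifitm1 read 0.127, 0.0934 and 0.322 CPM with vehicle and 10.1, 9.17 and 10.3 CPM with cytokines, a log2 fold change of 5.73 (SE 0.36), and of 6.40 without vehicle library 4. Bst2, or tetherin, which holds budding virions at the surface, read 6.54, 4.58 and 5.52 CPM with vehicle and 84.6, 83.5 and 99.2 CPM with cytokines, a log2 fold change of 4.00 (SE 0.13). Ifitm3, which blocks fusion of viruses in endosomes, rose by 3.93. Ifitm2, its close relative on chromosome 7 (140954837 to 140955987, GRCm38), read 35.5, 31.4 and 29.1 CPM with vehicle and 29.2, 31.3 and 37.3 CPM with cytokines. The 2 groups overlapped throughout, and the log2 fold change was 0.02 (SE 0.10, edgeR adjusted p = 0.84). Its sign turned under other scalings, such as upper quartile, where it was -0.10. Ifitm2 shares 48.5% of its 50-base stretches with other genes, 36.1% with Gm45717, which limits how well its reads can be assigned.

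Enzymes of nucleotides and RNA rose in all 6 cases, by log2 fold changes of 0.44 to 5.44. Rsad2 encodes viperin, which makes a chain-terminating form of CTP. It read 4.63, 3.22 and 4.70 CPM with vehicle and 174, 193 and 179 CPM with cytokines, a log2 fold change of 5.44 (SE 0.12, edgeR adjusted p = 3.9e-16). Cmpk2, a nucleotide kinase whose start site lies 12752 bases away on the other strand, rose by 2.11 from 38.6, 39.3 and 38.5 CPM to 178, 158 and 167 CPM. So the neighbours reached similar levels with cytokines from unlike levels with vehicle. Samhd1, which degrades deoxynucleotides, read 6.66, 6.49 and 6.45 CPM with vehicle and 54.5, 52.5 and 57.7 CPM with cytokines, a log2 fold change of 3.07. Isg20 read 94.4, 95.3 and 93.5 CPM with vehicle and 735, 786 and 794 CPM with cytokines, a log2 fold change of 3.03. Adar, which edits adenosine in double-stranded RNA, rose by 1.59. Eif2ak2 encodes PKR, the kinase that halts translation when it binds double-stranded RNA. It read 10.5, 11.4 and 13.2 CPM with vehicle and 19.7, 13.4 and 14.4 CPM with cytokines, a log2 fold change of 0.44 (SE 0.15, edgeR adjusted p = 0.014). The groups did not overlap, but the lowest cytokine library lay next to the highest vehicle library. Without cytokine library 1 the log2 fold change was 0.26 with an adjusted p of 0.11, and without vehicle library 1 it was 0.37 with an adjusted p of 0.065, and over 23 other ways of processing the call was lost in these and in upper quartile scaling (0.061).

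ISG15 is a ubiquitin-like protein that is joined to other proteins. Isg15 (chromosome 4, 156199424 to 156200818) read 0.594, 0.981 and 1.15 CPM with vehicle and 68.6, 62.9 and 68.6 CPM with cytokines, a log2 fold change of 6.20 (SE 0.16, edgeR adjusted p = 3.7e-15). Herc6, the main ligase for ISG15 in mice, read 11.5, 10.8 and 11.2 CPM with vehicle and 218, 204 and 217 CPM with cytokines, a log2 fold change of 4.25. Usp18, which removes ISG15 and also damps the type I receptor, rose by 3.07. The activating enzyme and the conjugating enzyme of this system, Uba7 and Ube2l6, were not members and rose by 3.37 and 4.33. Genes for activating, conjugating, ligating and removing ISG15 were each called higher, a call that 35.3% of all genes shared.

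The PARP proteins of this list belong to the family of enzymes that transfer ADP-ribose, and DTX3L is the ubiquitin ligase that pairs with PARP9. All 5 genes rose, within the narrow range of 2.76 to 3.99. Parp14 read 8.62, 11.02 and 9.67 CPM with vehicle and 178, 142 and 144 CPM with cytokines, a log2 fold change of 3.99. Dtx3l read 21.1, 21.3 and 18.5 CPM with vehicle and 240, 231 and 214 CPM with cytokines, a log2 fold change of 3.49 (SE 0.071, edgeR adjusted p = 7.1e-17). Parp9, whose start site lies 681 bases from that of Dtx3l on the opposite strand, rose by 3.06. Parp12 rose by 2.79 and Parp10 by 2.76. The vehicle and cytokine libraries of each gene were fully apart.

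Ifi204 and Ifi205 belong to the PYHIN proteins, which bind DNA. Ifi204 read 0.170, 0.327 and 0.230 CPM with vehicle and 11.2, 12.0 and 13.2 CPM with cytokines, a log2 fold change of 5.62. Ifi205 read 0.170, 0.0934 and 0 CPM with vehicle and 2.94, 3.24 and 5.19 CPM with cytokines. Ifi205 was the lowest member per length in each group, with 6 vehicle counts in all and a ratio of counts of 41.4 (exact 95% interval 18.7 to 114). Its fitted log2 fold change was 5.31, and 6.19 without vehicle library 1. Both genes share sequence with Ifi211, 14.8% of 50-base stretches for Ifi204 and 18.5% for Ifi205. The remaining 8 members all rose. Ifi44, on chromosome 3 (151730922 to 151749960), had the largest log2 fold change of the 40 genes, 7.56 (SE 0.55, edgeR adjusted p = 1.1e-06), from 0.170, 0.234 and 0.184 CPM to 34.5, 38.9 and 40.5 CPM. Xaf1, which binds the apoptosis inhibitor XIAP, read 2.67, 1.92 and 2.21 CPM with vehicle and 172, 179 and 183 CPM with cytokines, a log2 fold change of 6.29. Xaf1 was the member with the smallest edgeR adjusted p, 7.5e-18. Sp100, a protein of nuclear bodies, rose by 5.28, and Rtp4, a chaperone that hinders flavivirus replication, by 4.51. Ifi27 rose by 2.83, Samd9l, a restriction factor for poxviruses, by 2.54, and Ifi35 by 2.21. Lgals3bp rose least of these, by 0.58 (SE 0.061, edgeR adjusted p = 1.6e-07), from 1158, 1159 and 1075 CPM to 1676, 1710 and 1690 CPM.

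The second comparison asked for the cytokine response in islets that also received ML351, with ML351 alone as the control. Again 39 members were higher and none lower, against 35.2% and 36.4% of all genes. The median log2 fold change was 4.22 over the members and -0.02 over all genes. In 39 members each combination library lay above each ML351 library, as in 36.4% of all genes. The number of members above a 4-fold rise was 36, against 6.1% of all genes, and 21 rose more than 16-fold, against 1.83%. These shares too only describe a list chosen with earlier results known. Eif2ak2 was the member not called, at 11.9, 14.1 and 12.3 CPM with ML351 and 16.3, 15.1 and 12.1 CPM with the combination. Those groups overlapped, and the log2 fold change was 0.18 (SE 0.15, edgeR adjusted p = 0.27). Ifitm2 was called here, at 25.6, 25.4 and 29.8 CPM with ML351 and 30.9, 33.4 and 30.7 CPM with the combination, a log2 fold change of 0.23 (edgeR adjusted p = 0.046). That call was lost in 11 of 23 other ways of processing, with adjusted p from 0.053 to 0.33, including when ML351 library 1 or 2, combination library 1 or 2, vehicle library 2 or cytokine library 3 was left out.

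The largest log2 fold changes in this comparison were those of Ifitm1 (7.38), Ifit2 (7.17), Ifi205 (6.52), Isg15 (6.14) and Xaf1 (6.10). Ifitm1 had 3 counts in the ML351 group in all, and the ratio of its counts was 190 with an exact 95% interval of 64.5 to 923. Without ML351 library 3, the single one with counts, its fitted value was 10.38, which then depends on the prior count and is no bound. Ifi205 also had 3 counts there, with a ratio of 105 and an interval of 35.6 to 514, and a fitted value of 7.35 without ML351 library 3. For both genes the interval covers counting error alone and is wide because the lower group holds so few counts.

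**Figure D3:**
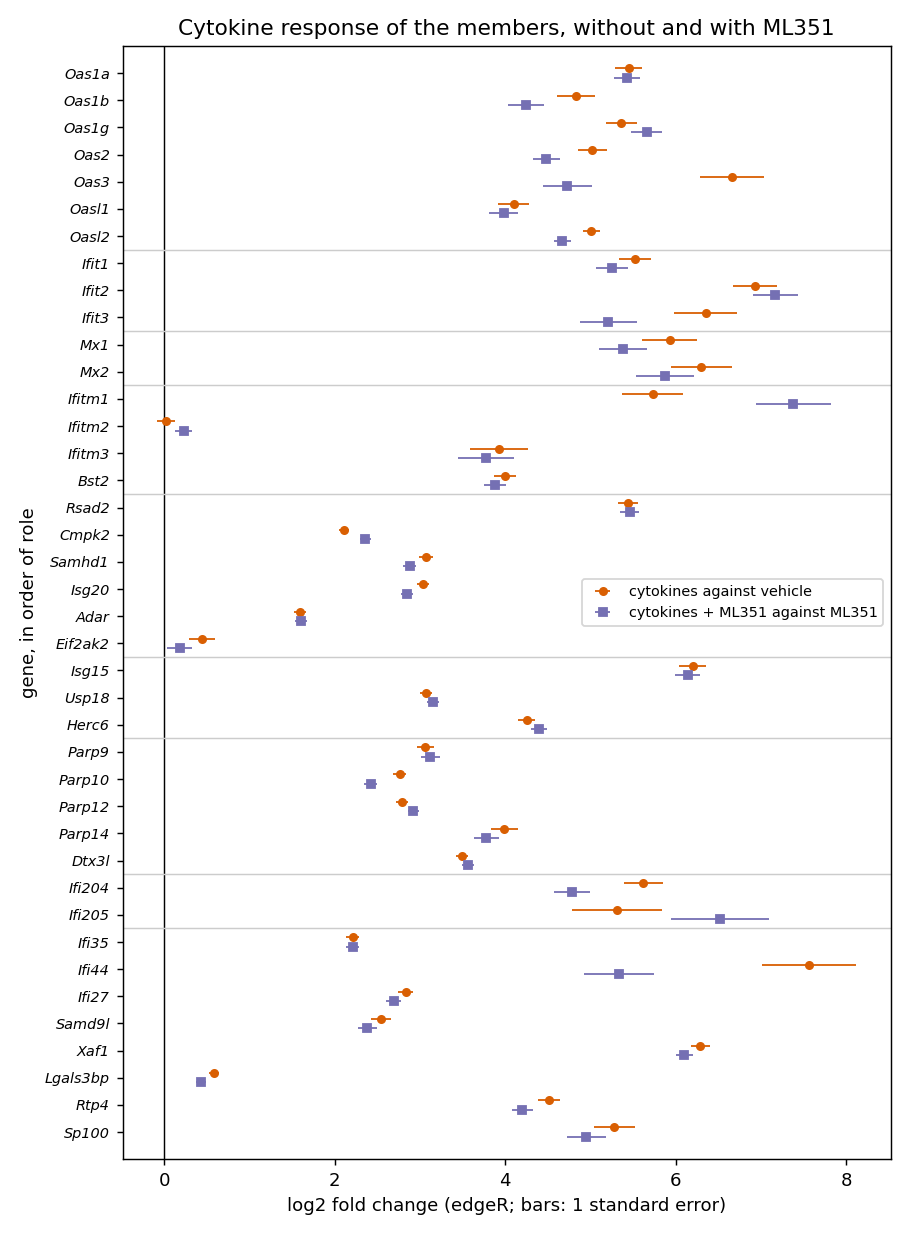
Log2 fold change of each member (rows, in order of role) with cytokines, without ML351 (circles, against vehicle) and with ML351 (squares, against ML351 alone), from edgeR, with bars of 1 standard error. Both estimates lie above 2 for 36 members, and Ifitm2, Eif2ak2 and Lgals3bp lie closest to 0.

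ML351 by itself was then set against vehicle. No member passed the test in edgeR or in limma voom, as against 0.0142% of all genes called higher and 0.0213% called lower in edgeR. At an unadjusted p below 0.05, 9 members were higher and 3 lower, beside 4.92% and 4.06% of all genes. DESeq2 called 2 members higher, Ifi44 (log2 fold change 2.66, adjusted p = 0.025) and Oas3 (1.98, adjusted p = 0.016). The shares of all genes above come from edgeR, so they give no background for these 2 calls. The share of all genes called by DESeq2 in this contrast is not reported here. The members' median log2 fold change was 0.13, and that of all genes 0.01. The libraries of the 2 groups did not overlap in 5 members that were higher and 3 that were lower, beside 8.57% and 7.32% of all genes.

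The 3 members with the smallest p in edgeR were Samhd1, Oas3 and Ifi44. Samhd1 read 6.66, 6.49 and 6.45 CPM with vehicle and 8.84, 7.87 and 7.88 CPM with ML351, a log2 fold change of 0.32 (SE 0.086, adjusted p = 0.20). Its ML351 libraries all lay above its vehicle libraries. Oas3 had 7, 3 and 2 counts with vehicle and 28, 16 and 10 counts with ML351, a ratio of 3.93 with an exact 95% interval of 2.08 to 8.07 for counting error (edgeR adjusted p = 0.24). Ifi44 had 4, 5 and 4 counts with vehicle and 58, 7 and 26 counts with ML351, with a log2 fold change of 2.59 ± 0.84 (SE) and an edgeR adjusted p of 0.37. The ML351 libraries of Ifi44 spread widely, and without ML351 library 2, the lowest of them, the log2 fold change was 3.11 with an edgeR adjusted p of 0.0198. Over 22 other ways of processing the adjusted p of Ifi44 ran from 0.02 to 0.67. ML351 library 2 was the lowest of its group for 19 of the 40 members. Such a count was not particular to it. Cytokine library 3 was lowest in its group for 19 members, vehicle library 4 for 17 and combination library 2 for 16. Like Ifi44, Ifit3 spread widely with ML351, with 49, 31 and 52 counts with vehicle and 200, 65 and 100 with ML351 (log2 fold change 1.29, edgeR adjusted p = 0.44). Beside these values, the macrophage markers summed to less with ML351 than with vehicle, and 1 of 12 was called lower.

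The comparison closest to the question of the study set the combination against cytokines alone. Rsad2 was the single member called, and it was higher with the combination, beside 0.646% of all genes called higher and 0.788% called lower. It read 174, 193 and 179 CPM with cytokines and 224, 226 and 251 CPM with the combination, a log2 fold change of 0.36 (SE 0.086, edgeR adjusted p = 0.0498). The combination libraries all lay above the cytokine libraries. The call sits at the threshold. It was lost, with adjusted p of 0.053 to 0.15, in 14 of 23 other ways of processing, among them leaving out any 1 of the 6 libraries compared, vehicle library 1 or 4, or ML351 library 2 or 3. The log2 fold change in those 23 settings stayed between 0.29 and 0.44. DESeq2 (adjusted p = 0.00177) and limma voom (adjusted p = 0.02) also called it.

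The other members differed little between these groups. The median log2 fold change was -0.01 over the 40 genes and 0.00 over all genes, and the members ranged from -0.40 to 0.44. At an unadjusted p below 0.05, 4 were higher and 3 lower, beside 7.79% and 7.91% of all genes. Oasl1, a relative of the synthetases that restrains production of IRF7 in mice, read 32.9, 34.05 and 37.8 CPM with cytokines and 42.2, 51.2 and 48.5 CPM with the combination, a log2 fold change of 0.44 (SE 0.14, edgeR adjusted p = 0.13). DESeq2 (adjusted p = 0.0492) and limma voom (adjusted p = 0.0422) called it higher, within a range of 0.042 to 0.30 over 23 other ways of processing. Parp10 read 194, 184 and 170 CPM with cytokines and 158, 160 and 147 CPM with the combination, a log2 fold change of -0.24 (SE 0.074, edgeR adjusted p = 0.12), and DESeq2 called it lower (adjusted p = 0.0287, range 0.029 to 0.36 over those settings). Cmpk2 read 178, 158 and 167 CPM with cytokines and 189, 182 and 187 CPM with the combination, a log2 fold change of 0.15 (edgeR adjusted p = 0.19). In each of these 3 genes the 2 groups did not overlap. In all, 7 members were higher and 4 lower without overlap, beside 10.1% and 10.3% of all genes. Ifit2 had a log2 fold change of 0.38 (edgeR adjusted p = 0.33) and Isg15 of 0.23 (0.28). Acinar markers were higher in the combination libraries than in the cytokine libraries in summed level, though none of the 11 measured passed the test. In this contrast edgeR called 3 of 6 endothelial markers lower (median log2 fold change -0.82), 2 of 12 macrophage markers lower, 1 of 5 ductal markers lower and 1 of 3 delta cell markers higher. The part of these markers in the values above was not tested.

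**Figure D4:**
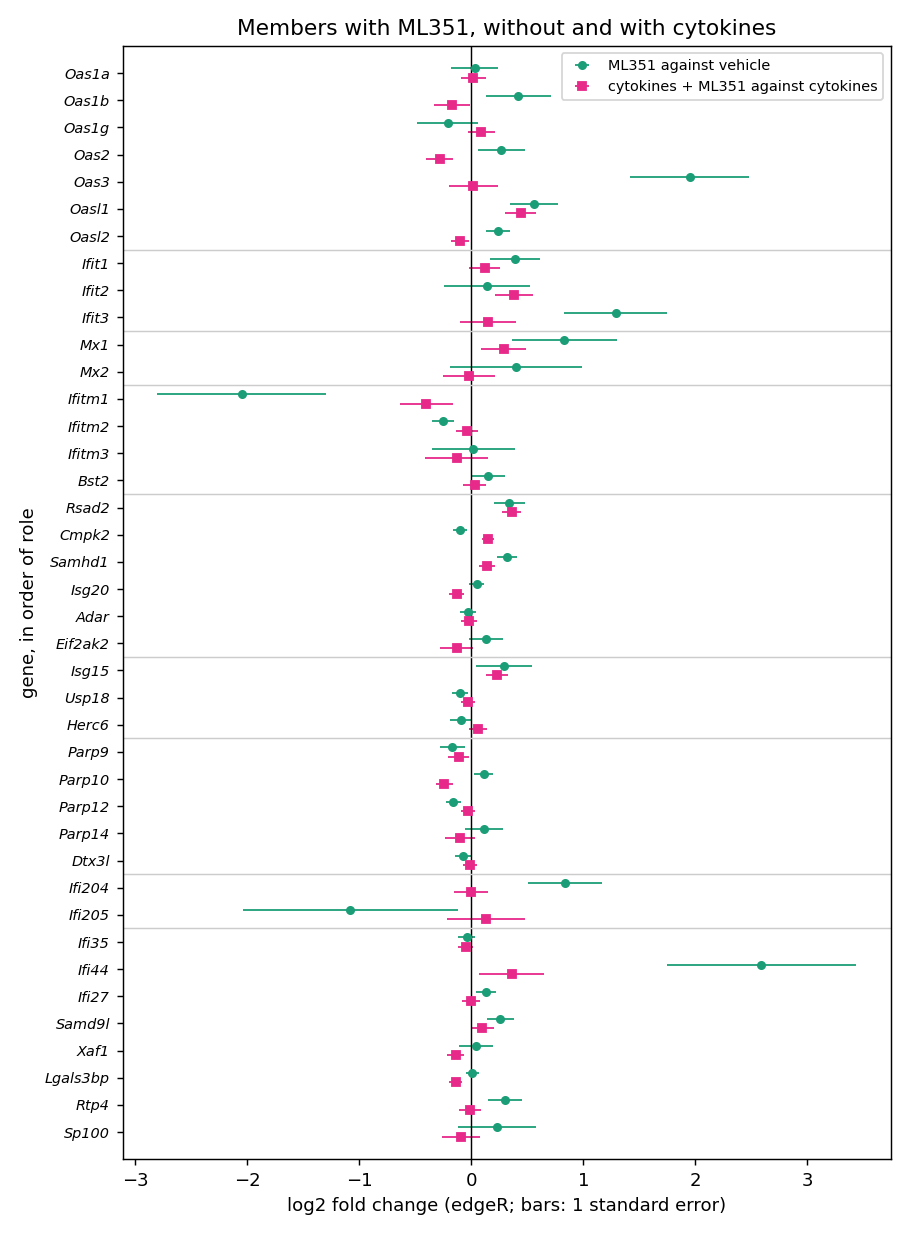
Log2 fold change of each member (rows, in order of role) with ML351, without cytokines (circles, against vehicle) and with cytokines (squares, against cytokines), from edgeR, with bars of 1 standard error. Estimates with cytokines lie between -0.40 and 0.44, and those without cytokines spread from -2.05 to 2.59 with long bars for genes of few counts.

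**Figure D5:**
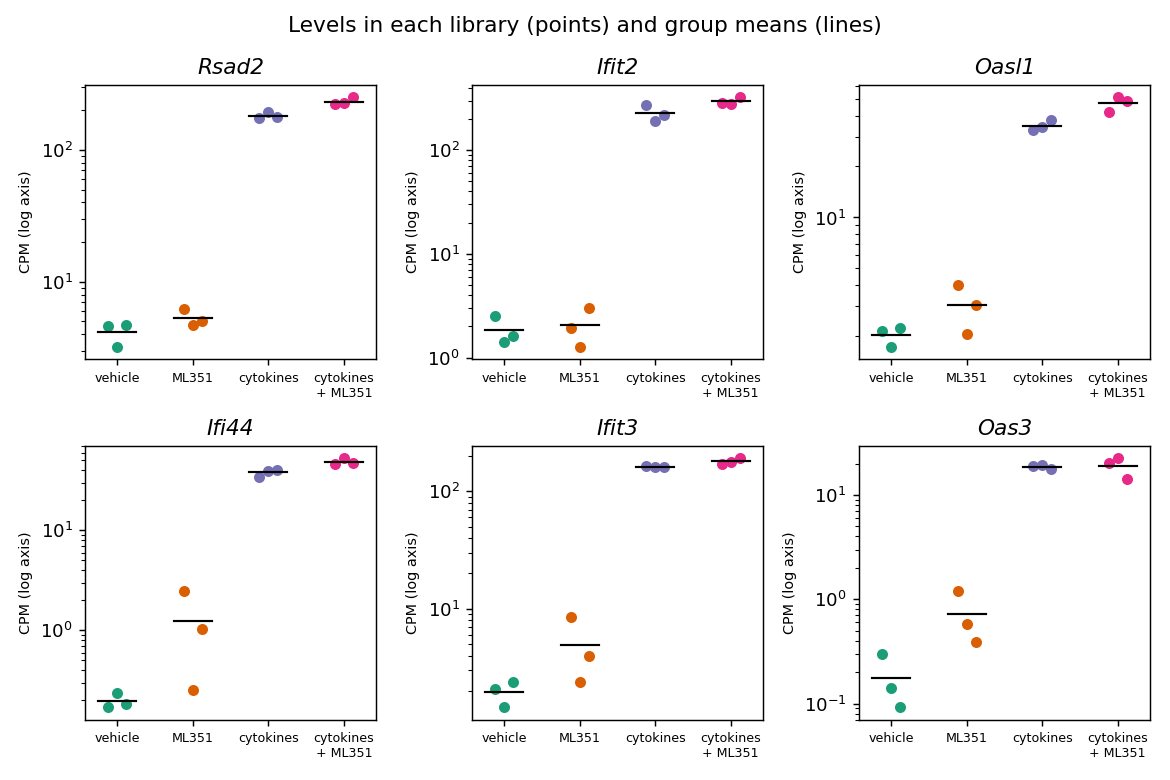
Level of 6 members in each library (points) with the group mean (line), in CPM on a log axis. The combination libraries of Rsad2 and Oasl1 lie above the cytokine libraries, and the ML351 libraries of Ifi44 spread from 0.255 to 2.46 CPM.

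Whether ML351 altered the response to cytokines was tested as the interaction of both treatments. No member was called by edgeR, and 1 gene in all was (0.0071%). At an unadjusted p below 0.05, 1 member had a larger and 6 a smaller response with ML351, beside 3.79% and 4.44% of all genes, and DESeq2 and limma voom called no member. The smallest p belonged to Oas3, with a log2 difference of -1.93 (SE 0.57, adjusted p = 0.38), Parp10, with -0.34 (SE 0.11, adjusted p = 0.38), and Cmpk2, with 0.25 (SE 0.083, adjusted p = 0.40). Over 22 other ways of processing the adjusted p of Oas3 ran from 0.17 to 0.69. Oas3 read 20.4, 22.6 and 14.1 CPM with the combination, which overlapped its levels with cytokines, so its groups were apart in the arm without cytokines.

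The rest of the interferon pathway was read from lists set by role, with earlier results of these data known. Of 10 interferon ligands 2 were among the measured genes, Ifnl2 and Ifnl3, the type III interferons. Ifnl3 had 0, 2 and 0 counts with vehicle and 191, 180 and 125 with cytokines, a ratio of 254 with an exact 95% interval of 70 to 2.11e+03. Ifnl2 had 1, 0 and 0 counts with vehicle and 147, 146 and 120 with cytokines, a ratio of 424 with an interval of 75.6 to 1.68e+04. Both were called higher with cytokines, without and with ML351. With 0 to 2 counts in each library without cytokines, both may be among the measured genes only through their cytokine libraries. If low genes were dropped from the deposited counts, these calls were fixed in advance. Ifnl3 was also higher in the combination than with cytokines alone, at 15.2, 16.5 and 14.7 CPM against 7.70, 8.83 and 6.30 CPM, a log2 fold change of 1.02 (SE 0.21, edgeR adjusted p = 0.029). Its groups were apart, but the call was lost when combination library 1 or 2 or any 1 of the 3 cytokine libraries was left out, with adjusted p of 0.05 to 0.12. Ifnl2 read 11.8, 11.7 and 9.43 CPM with the combination against 5.93, 7.16 and 6.05 CPM, a log2 fold change of 0.79 (edgeR adjusted p = 0.089). Shared sequence was measured for the members alone, so how well reads can be assigned between Ifnl2 and Ifnl3 was not tested.

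The counts that follow are for cytokines against vehicle and stand beside the 35.3% of all genes called higher and the 37.2% called lower. Among 6 receptor genes 4 rose with cytokines, and by edgeR none was lower. Ifngr2, a chain of the IFN-γ receptor, rose by 2.20, Ifnar2 of the type I receptor by 1.59, Ifngr1 by 1.06 and Il10rb, shared by the type III receptor, by 1.03. Ifnar1 had a log2 fold change of -0.06 (edgeR adjusted p = 0.59) and Ifnlr1, the specific chain for type III, of 0.45 (0.22). Of 12 signal transducers 10 rose and 1 fell. Irf7 rose by 5.45, Irf1 by 4.18 and Stat2 by 3.67, and the kinase gene Tyk2 fell by 0.57. Irf1 reached 1040 ± 59.4 CPM from 57.5 ± 0.564 (SD, n = 3). Of 10 negative regulators 6 rose and 3 fell, beside 35.3% and 37.2% of all genes. Socs1, an inhibitor of JAK kinases, rose by 5.81, and the phosphatase genes Ptpn2 and Ptpn1 by 1.67 and 1.25, and Pias4 by 1.07. Cish, Pias1 and Pias2 fell by 1.00, 0.28 and 0.32.

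Of 11 genes that sense foreign nucleic acids 9 were measured, 8 rose and 1 fell. Zbp1, a sensor of left-handed RNA and DNA, rose by 8.21 (8.91 without vehicle library 1), Dhx58 by 4.33, Ddx58, which encodes RIG-I, by 2.59, and the kinase gene Ikbke by 2.42. Mavs, the mitochondrial adaptor of RIG-I, fell by 0.68. Of 6 partners of the synthetases and of ISG15, 3 rose, Ube2l6, Uba7 and Trim25, and 1 fell, Abce1, a factor of ribosome recycling, by 0.22. With 35.3% of all genes higher and 37.2% lower, nothing particular to these 6 is read from those counts. Of 19 relatives of the members 15 were measured, 10 rose and 3 fell. Mnda rose by 4.91, Ifi203 by 5.13 and Parp11 by 1.42. Parp1 and Adarb1 fell by 0.59 and 0.64, and Oas1c, another relative of the synthetases, by 0.61. The call of Oas1c (edgeR adjusted p = 0.043) was lost in 11 of 22 other ways of processing. For the combination against ML351, the log2 fold change of Oas1c was -0.27 (edgeR adjusted p = 0.36). Mavs, Cish, Pias1, Pias2, Parp1, Adarb1, Oas1c, Ifnar1, Ifnlr1, Tyk2 and Ifit3b were named after their values were seen. In these 7 lists Ifnl3 was the single gene called in any contrast of ML351.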

How the data were processed

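The deposited values are whole-number counts of reads per gene symbol, 1 column for each of 12 libraries, which the authors did not normalize or pool. Build mm10 and the tools STAR, featureCounts, Subread, DESeq2 and FastQC appear in the submitters' processing notes, where no version or role is stated. Per the labels' protocols the SMARTSeq v4 libraries were not stranded, so overlapping genes on opposite strands cannot be told apart. Such overlap took in 16.8% of the exon bases of Adar (with Chrnb2) and 16.8% of those of Ifi35 (with Gm11626). Which annotation served for counting, or whether low genes were dropped, is not given in the sources used here.

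The 40 members and the pathway and marker lists were chosen with earlier results of these data known. Members were ordered by role, and values in every library are given for the 2 members of each role with the largest change with cytokines, the 3 with the highest level per length with vehicle, those not called, and those called or with the smallest p in the contrasts of ML351. Other pathway genes are named at most 4 a list, by smallest p, unless said otherwise, and some genes of these lists are not reported here.

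All 14089 genes were fitted in one model of the 12 libraries by the robust quasi-likelihood method of edgeR 4.0.16 (R 4.3.3), with TMM scaling and filterByExpr by group, which removed no gene. P-values were adjusted over all genes by Benjamini and Hochberg's method, and a gene was called at 0.05. The SE of a log2 fold change is its size over the root of its F statistic. CPM (counts scaled to the library total) use TMM-scaled totals, and levels per kilobase use the exon length in GENCODE M21 (GRCm38), in which 13589 symbols were found. Ratios of counts for genes near the floor carry exact 95% intervals, which cover counting error alone. No pair of libraries of a group had counts that matched within sampling noise.

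The alternatives were other scalings and filters, DESeq2 1.42.0, limma voom (limma 3.58.1), a fit without robust estimation, a replicate block, the compared groups alone, and leaving out each of the 12 libraries. Shared sequence was measured as the share of a gene's 50-base stretches also found in transcripts of other genes.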

Additional observations from a re-analysis of the deposited data

How the results depend on the processing

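Members called higher with cytokines numbered 38 to 39 against vehicle and 37 to 39 against ML351 over the 23 alternatives, and none was called lower. The members' median log2 fold change ran from 4.21 to 4.43 and from 4.10 to 4.34. Upper quartile scaling moved the median of all genes with cytokines from -0.02 to -0.15. The value of Ifitm2 with cytokines against vehicle turned to -0.10 under upper quartile scaling, -0.05 under library totals alone, -0.02 with a filter of 5 CPM in 3 libraries and -0.00 with the replicate block, and ran from -0.08 to 0.11 over the fits without 1 library. The cause was not tested. For ML351 against vehicle, members called higher numbered 2 with DESeq2 and 0 to 1 without 1 library. For the combination against cytokines they numbered 0 with DESeq2 size factors in edgeR, library totals alone, the fit without robust estimation and the replicate block, 2 with DESeq2 and limma voom, and 0 to 1 without 1 library, and DESeq2 called 1 lower. In that comparison 202 genes of the table were called, against 527 with DESeq2, 110 without robust estimation and 53 with the replicate block. The longer response element GAAANNGAAACT, which on the other strand has AG before its first half-site, was present in 6 members. Deviations of same-numbered libraries correlated at -0.377 to 0.202, and those of other pairs across groups at -0.3007 to 0.4655. These values cannot settle whether equal numbers mark shared islet preparations, which the labels do not say. With the replicate block 39 and 38 members were called with cytokines, none in either contrast of ML351 or the interaction, and the call of Ifnl3 was lost (adjusted p = 0.13). Depth limits the members with few counts in islets without cytokines, among them Ifi205, Ifitm1, Oas3, Ifi44 and Mx2. If low genes were dropped from the deposited counts, such members may be present only through the libraries with cytokines.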
